A study of Capra hircus with 9 samples.

Results

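The genes described here are 8 Toll-like receptor genes, TLR1 to TLR8, and 2 genes of the adaptor proteins that carry their signal, MYD88 and TICAM1, chosen by symbol from the 23499 genes of the deposited expression table, in which all 10 were found. They were followed in bulk mammary gland tissue of 9 healthy Laoshan dairy goats of parity 3 and a mean age of 4 years, at 3 stages of the reproductive cycle. Late lactation (LL, 240 days postpartum), the dry period (DP, 300 days postpartum) and late gestation (LG, 140 days after mating) had 3 goats and 3 libraries each, named LL1 to LL3, DP1 to DP3 and LG1 to LG3. No goat was treated, and tissue was taken at slaughter, so each goat contributed to a single stage. The tissue carried epithelial transcripts at every stage, with a summed scaled level of 6 epithelial marker genes of 284.1 to 307.4 (LL), 230.4 to 641.4 (DP) and 302.7 to 374.6 (LG).

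Toll-like receptors are membrane proteins of leukocytes, epithelial cells and other cells that bind conserved parts of microbes. TLR1, TLR2 and TLR6 bind bacterial lipopeptides as pairs, TLR4 binds lipopolysaccharide, and TLR5 binds flagellin, all at the cell surface, whereas TLR3 binds double-stranded RNA and TLR7 and TLR8 bind single-stranded RNA inside endosomes. MYD88 is used by every receptor of the list except TLR3, and TICAM1, also known as TRIF, is used by TLR3 and TLR4, and both lead to NF-kB and interferon regulatory factors. In the udder these receptors are known as sensors of the bacteria that cause mastitis.

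Levels are given in FPKM, reads per length of transcript and size of the library, as deposited. Most genes had lower deposited values in LL than at the other stages. The values of each library were therefore divided by a scaling factor before stages were compared, which lay between 0.498 and 0.606 for LL, between 1.44 and 1.53 for DP and between 1.198 and 1.31 for LG. The results are named scaled FPKM. Every log2 fold change is a difference of log2(scaled FPKM + 1), which understates the change of weakly expressed genes. A gene was called higher or lower if its adjusted p was under 0.05 and its log2 fold change reached 1 in either direction. Of the 10 genes, 9 passed the filter on low values of 0.5 FPKM in 3 libraries and were tested, and TICAM1 did not pass. The number of reads behind each value is unknown, so no counting error can be given. In bulk tissue, fewer cells of a type and less RNA per cell cannot be told apart. The library DP1 stood apart, with 7.68 FPKM of the B cell gene MS4A1 and 19.32 of the adipocyte gene ADIPOQ, against 0.13 and 0.79 in DP2 and 0.16 and 1.72 in DP3. DP1 was also the DP library with the highest TLR1, TLR3, TLR5, TLR6, TLR7, TLR8 and MYD88 as deposited. After scaling this no longer held for MYD88, at 4.404 in DP1 and 4.669 in DP3.

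Before the stages are compared, a property of the deposited values has to be stated. TLR1 exceeded TLR6, which lies on the same strand of chromosome 6, by 1.0, 1.3 and 1.5 FPKM in LL1, LL2 and LL3, by 1.0, 1.5 and 1.5 in DP1, DP2 and DP3 and by 1.5, 1.2 and 1.0 in LG1, LG2 and LG3. The gene BAX exceeded its neighbour FTL by the same 9 amounts. The values of TLR1 and TLR6 are therefore not separate measurements. None of the other members followed any of its 8 next neighbours on either side of the same strand in this way. Among the cell type markers used here, the epithelial KRT14 and KRT5 and the endothelial PECAM1 did follow such neighbours, so their values may not be separate measurements either. The table as a whole also holds few values just under these amounts in LL. In LL1, 158 genes lay within 0.2 FPKM below the amount and 1068 within 0.2 FPKM above it, in LL2 314 and 1218, and in LL3 301 and 952. The ratio of genes above to genes below was between 3.16 and 6.76 in LL, between 1.46 and 2.66 in LG and between 1.07 and 1.37 in DP. A rise in genes per 0.1 FPKM lay above the amounts in DP, from 98 to 161 at 1.5 FPKM in DP1. It was from 116 to 204 at 2.0 FPKM in DP2 and from 128 to 210 at 2.0 FPKM in DP3. TLR5 in DP2 (1.82) and DP3 (1.69) and TLR8 in DP3 (1.83) lay under these rises. Subtraction of larger amounts in DP was not tested. Whether a fixed amount is part of a given value cannot be told from the table, so results are also given with the amounts subtracted in each stage whose 3 values all reach them, an alternative chosen after the values were seen.

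**Figure D1:**
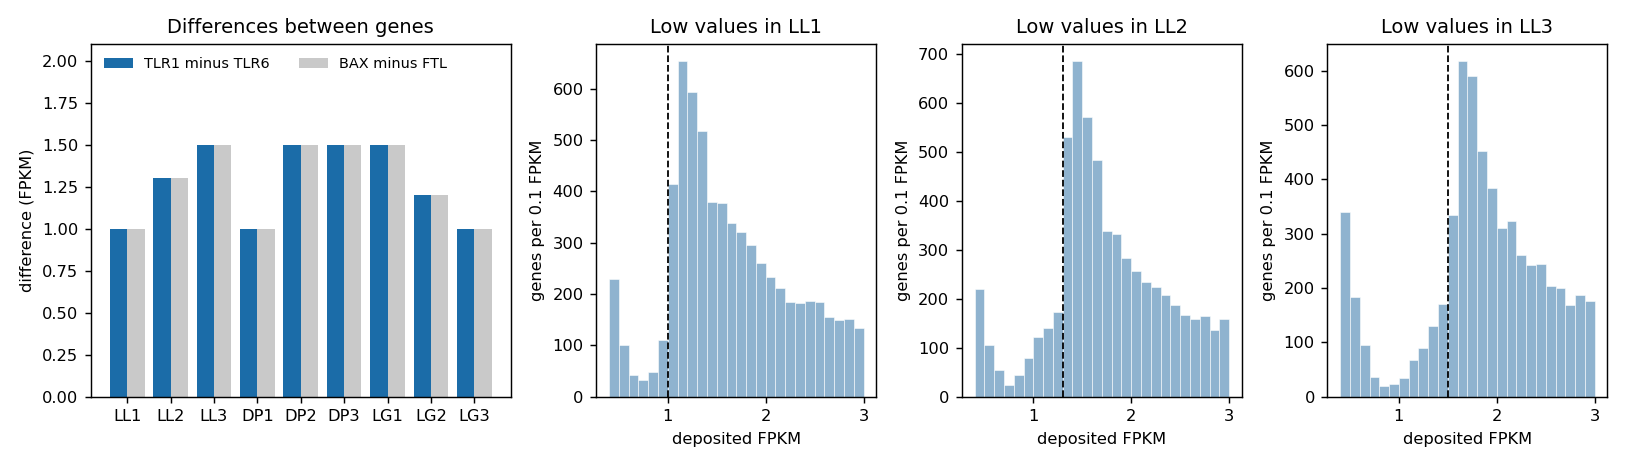
Left, difference in deposited FPKM between TLR1 and TLR6 and between BAX and FTL in each library. Right, number of genes per 0.1 FPKM between 0.4 and 3 FPKM in the 3 LL libraries, with the amount of that library as a dashed line. The paired bars are equal in all 9 libraries, and the number of genes rises at each dashed line.

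TLR3 had the largest log2 fold change among the 9 tested genes in DP against LL and in LG against LL. It was higher in DP and in LG than in LL. No LL value of TLR3 reached 0.5 FPKM, so it passed the filter only through the DP and LG libraries, in which it was high. TLR5 was higher in LG than in LL, and TLR8, which passed the filter only through the DP libraries in which it was high, was higher in DP than in LL and lower in LG than in DP. None of TLR1, TLR2, TLR4, TLR6, TLR7 and MYD88 was called in any comparison. In DP against LL, 2 of the 9 tested genes were called higher and 0 lower, where 22.6% of all 14701 genes tested were called, 13.8% higher and 8.79% lower. In LG against LL, 2 were called higher and 0 lower (17.3% of all genes, 10.7% and 6.61% by direction), and in LG against DP 0 were called higher and 1 lower (13.3% of all genes, 6.37% and 6.88%). By the adjusted p alone, 2, 3 and 1 of the 9 genes passed in the 3 comparisons, against 56.9%, 50.2% and 34.8% of all genes. The scaled values of the compared stages did not overlap for 3, 4 and 2 of the 9, against 65.9%, 61.1% and 47.9% of all genes. The median log2 fold change of the 9 genes was 0.09, -0.12 and -0.27 in the same order, against 0.00, 0.02 and 0.01 for all genes tested. These numbers count the linked TLR1 and TLR6 separately. Without TLR1, the scaled values did not overlap for 3, 3 and 2 of 8 genes, and the medians were 0.16, -0.11 and -0.26.

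**Figure D2:**
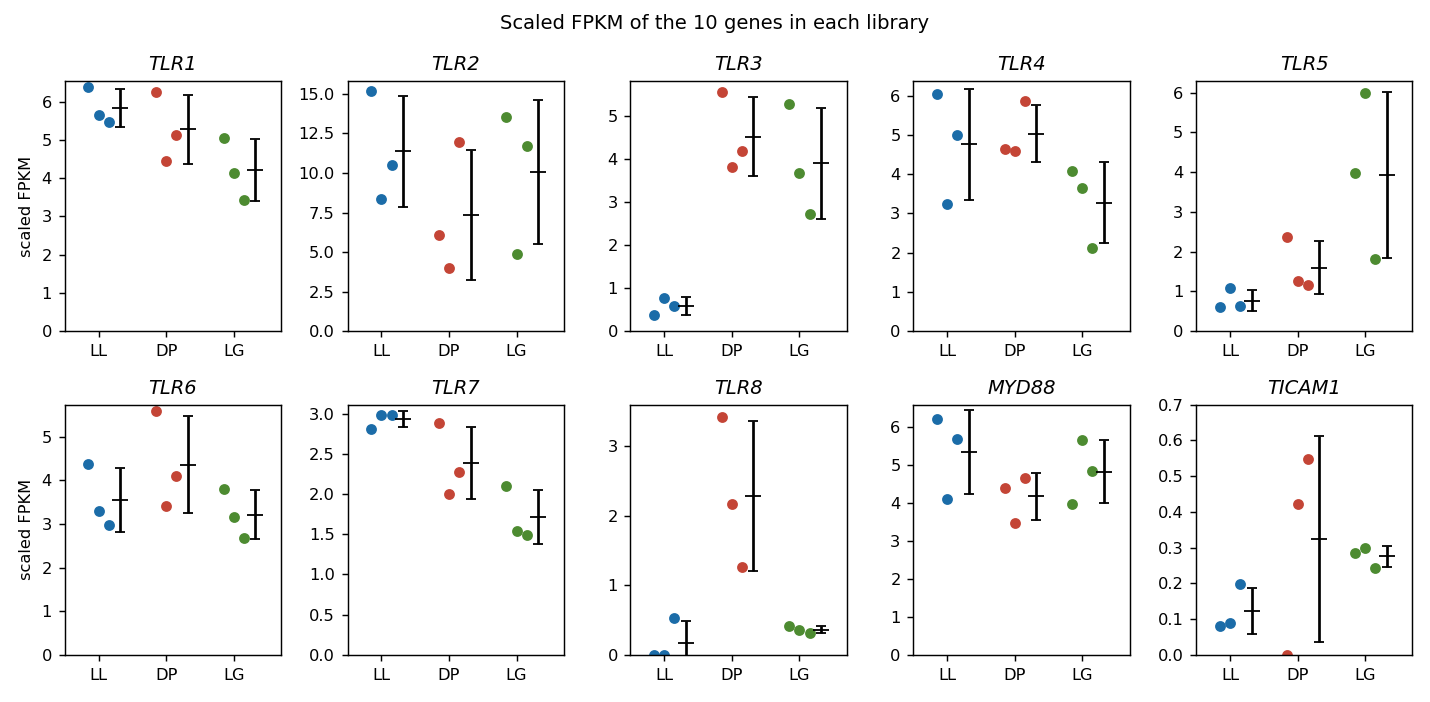
Scaled FPKM (linear axes from 0, with their own range in each panel) of the 10 genes, 1 point per library, with the mean and SD of each stage (n = 3) beside the points. The LL points of TLR3 all lie below 0.8 and those of DP and LG above 2.7, whereas the stages of TLR2, TLR6 and MYD88 overlap.

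TLR3, TLR5 and TLR8 and the untested TICAM1 were the members whose LL values all lay below the fixed amounts, and in DP the first 3 reached them. The other 6 members had all 9 values at or above the amounts. Of the 1831 tested genes with all LL values below and all DP values reaching the amounts, 79.4% were called higher in DP. For LG in place of DP, 77.7% of 1476 genes, TLR3 and TLR5 among them, were called higher than in LL. With all DP values reaching the amounts and all LG values below, as for TLR8, 80.2% of 262 genes were called lower in LG. Of the 10522 genes with all 9 values at or above them, 13.4%, 8.88% and 11.2% were called in the 3 comparisons.

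Among the receptors at the cell surface, TLR2 (gene ID 100860747, chromosome 17, 66857163 to 66868678), the partner of both TLR1 and TLR6, had the highest mean of the 10 genes at each stage. Positions are those of the deposited table, which names no genome build. TLR2 had 7.57, 4.63 and 6.35 FPKM in the LL libraries, 9.30, 5.77 and 17.19 in those of DP, and 16.22, 6.03 and 15.41 in those of LG. DP3, LG1 and LG3 were high and DP2 and LG2 low, and the scaled values overlapped in every comparison. The log2 fold change was -0.64 (95% confidence interval -1.56 to 0.28) in DP against LL, -0.23 (-1.15 to 0.69) in LG against LL and 0.42 (-0.50 to 1.34) in LG against DP. Without DP3, TLR2 was called lower in DP than in LL (-1.01, adjusted p = 0.0489). With the amounts subtracted the 3 changes were -0.91, -0.40 and 0.51, and none was called.

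TLR4 (gene ID 100860955, chromosome 8, 106716422 to 106726319), the receptor for lipopolysaccharide, had 3.00, 1.79 and 3.03 FPKM in the LL libraries, 7.07, 6.62 and 8.44 in those of DP, and 4.87, 4.49 and 2.79 in those of LG. As deposited, every DP value exceeded every LL value, but the scaled means of the stages were 4.76, 5.03 and 3.28, and LL and DP overlapped. Its log2 fold change in DP against LL was 0.09 (95% confidence interval -0.415 to 0.597). In LG against DP the scaled values did not overlap, and the log2 fold change of -0.52 had an adjusted p of 0.102. Without scaling, TLR4 would be called higher in DP than in LL (1.23), and so would TLR1, TLR5 and TLR6, but the median of all genes tested then also shifts by 1.09. Subtracting the amounts gave 0.34 in DP against LL and -0.25 and -0.59 for LG against LL and DP, again without a call.

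TLR1 (gene ID 100861260, chromosome 6, 58613568 to 58615761) and TLR6 (gene ID 100860932, chromosome 6, 58641692 to 58666652) are the 2 genes whose values are linked. TLR6 had 2.18, 1.82 and 1.81 FPKM in the LL libraries, 8.54, 4.91 and 5.89 in those of DP, and 4.55, 3.89 and 3.52 in those of LG. The DP libraries were the highest as deposited, and after scaling the 3 stages overlapped, with means of 3.55, 4.36 and 3.21. The log2 fold change of TLR6 was 0.23 (95% confidence interval -0.18 to 0.63) in DP against LL, and that of TLR1 was -0.13 (-0.47 to 0.21), so the direction differed between the linked genes. In LG against LL, TLR1 was at -0.40 with an adjusted p of 0.0503 and TLR6 at -0.11 with an adjusted p of 0.636. With the amounts also subtracted from TLR6, its change in DP against LL was 0.735 (adjusted p = 0.0662), outside the interval above, and 0.81 (adjusted p = 0.0433) where they were subtracted at every stage, still under the threshold of 1. In LG against LL it turned to 0.37. Subtracting the amounts gives TLR1 the values that TLR6 has as deposited, and its change in DP against LL was again -0.13.

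TLR5 (gene ID 100860844, chromosome 16, 25099755 to 25124298), the flagellin receptor, had 0.30, 0.60 and 0.38 FPKM in the LL libraries, 3.61, 1.82 and 1.69 in those of DP, and 4.76, 7.39 and 2.40 in those of LG. Every LG library and every DP library exceeded the LL libraries, also after scaling, and LG varied most, with LG3 inside the range of DP. The mean scaled FPKM was 0.772, 1.60 and 3.93 in LL, DP and LG, a ratio of 5.095 between LG and LL. In LG against LL the change was 1.39 on the log2 scale, with a standard error of 0.30 that also holds for the other comparisons and an adjusted p of 0.00442. It was 0.54 in DP against LL (adjusted p = 0.156) and 0.86 in LG against DP (adjusted p = 0.0531). Subtraction by stage takes the amounts from DP and LG but nothing from LL for TLR5. The call in LG against LL was then lost (0.83, adjusted p = 0.122) and DP against LL turned to -0.37. LG against DP was called (1.204, adjusted p = 0.0424). Where the amounts were subtracted at every stage, the call in LG against LL stood and DP against LL kept its direction. LG against DP was also called without DP1 (1.04) or without LG3 (1.198) and with quantile normalization (1.08).

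Among the endosomal receptors, TLR3 (gene ID 102182757, chromosome 27, 29373589 to 29384965), which senses double-stranded RNA, had 0.19, 0.43 and 0.36 FPKM in the LL libraries, 8.47, 5.49 and 6.0 in those of DP, and 6.32, 4.53 and 3.58 in those of LG. All 6 DP and LG libraries exceeded all 3 LL libraries, as deposited and after scaling, and DP and LG overlapped. Mean scaled FPKM was 0.585, 4.51 and 3.89 in the order LL, DP and LG, which gives ratios of 7.71 for DP and 6.66 for LG against LL. On the log2 scale the change was 1.79 with a standard error of 0.20 in DP against LL (adjusted p = 7.85e-05) and 1.60 with the same error in LG against LL (adjusted p = 0.000212). LG against DP gave -0.19 (95% confidence interval -0.64 to 0.26). Both calls stood with each library left out in turn, at 1.63 to 1.92 for DP and 1.39 to 1.76 for LG against LL. With the amounts subtracted from DP and LG, and nothing from LL, the log2 fold changes were 1.27 and 1.09 and were still called.

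TLR7 (gene ID 102171227, chromosome X, 50701229 to 50719365) and TLR8 (gene ID 100860909, chromosome X, 50662441 to 50678397) lie next to each other and both sense single-stranded RNA. TLR7 had 1.40, 1.65 and 1.81 FPKM in the LL libraries, 4.4, 2.88 and 3.28 in those of DP, and 2.51, 1.90 and 1.96 in those of LG. After scaling LL was the highest stage, at 2.81 to 2.99, and did not overlap with LG, at 1.49 to 2.096. The change of TLR7 was -0.54 on the log2 scale with a standard error of 0.13 in LG against LL (adjusted p = 0.00774), under the threshold of 1, and -0.22 (95% confidence interval -0.52 to 0.08) in DP against LL. The amounts made up 71.4% to 82.9% of its LL values, the highest minimum of any member in LL, and with them subtracted the change in LG against LL was -0.09 and that in DP against LL 0.34.

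TLR8 was listed at 0 in LL1 and LL2 and at 0.32 FPKM in LL3, and had 5.23, 3.14 and 1.83 FPKM in DP and 0.49, 0.45 and 0.41 in LG. Every DP library exceeded the other 6, and LG and LL overlapped after scaling. On the log2 scale it was higher by 1.46 with a standard error of 0.25 in DP against LL (adjusted p = 0.000971), and the change in LG against DP was -1.22 with the same error (adjusted p = 0.00469). LG against LL gave 0.24 (95% confidence interval -0.31 to 0.80). The 2 calls rest on the 3 DP libraries, the only ones at 0.5 FPKM or more, and TLR8 could not be tested without any 1 of them. After the subtraction it no longer passed the filter, and fitted without a filter it was at 0.76 (adjusted p = 0.107) and -0.58 (adjusted p = 0.248). TLR8 overlaps by 14481 bases with LOC108634354, a long non-coding RNA gene on the opposite strand at 0.05 to 0.54 FPKM. The overlap was taken from the start and end of each gene, so it may include introns, and shared exons were not examined. The library kit is not stated to keep the strand, so reads from any shared exon could not be told apart.

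**Figure D3:**
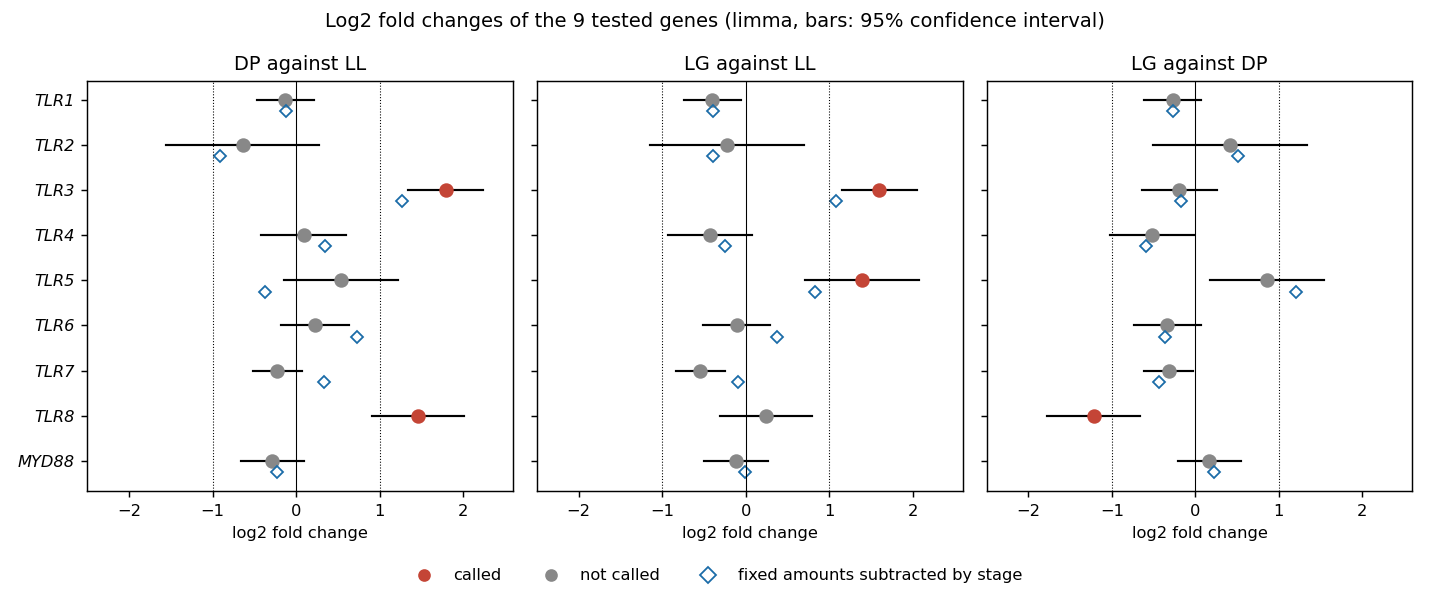
Log2 fold change of log2(scaled FPKM + 1) with its 95% confidence interval for the 9 tested genes in the 3 comparisons, red where called. Open diamonds give the value with the fixed amounts subtracted by stage and are absent for TLR8, and dotted lines mark the threshold of 1. TLR3 stays above 1 against LL with either processing, while TLR5 moves across the threshold.

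Of the adaptors, MYD88 (gene ID 102174883, chromosome 22, 11484772 to 11490413) had 3.10, 2.27 and 3.45 FPKM in the LL libraries, 6.73, 5.01 and 6.72 in those of DP, and 4.78, 6.99 and 6.37 in those of LG. The LL libraries were the lowest as deposited, but the scaled values of all stages overlapped, with means of 5.34, 4.18 and 4.84. Its log2 fold changes were -0.28 (95% confidence interval -0.66 to 0.10) in DP against LL, -0.12 (-0.50 to 0.27) in LG against LL and 0.17 (-0.21 to 0.55) in LG against DP. A change of the threshold size is outside each of these intervals. After the subtraction the first was -0.23 and the last 0.22.

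TICAM1 (gene ID 102170774, chromosome 7, 91208370 to 91224955) was the lowest of the 10 genes at each stage by its mean. It had 0.04, 0.05 and 0.12 FPKM in LL, 0.61 and 0.79 in DP2 and DP3 and 0.34, 0.37 and 0.32 in LG, and was listed at 0 in DP1. All LG values exceeded all LL values, and DP overlapped with both. Fitted without a filter on low values, its log2 fold change was 0.21 (adjusted p = 0.253) in DP against LL, 0.19 (adjusted p = 0.364) in LG against LL and -0.03 (adjusted p = 0.906) in LG against DP. Its receptor TLR3 was at 6.65 ± 1.59 FPKM (SD, n = 3) in DP.

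Since FPKM is a level per length, the genes can also be ordered within a stage. In LL, TLR2 (6.18 ± 1.48 FPKM, SD, n = 3) did not overlap with the next gene, TLR1 (3.20 ± 0.097). From there TLR1, MYD88, TLR4, TLR6 and TLR7 followed each other with overlapping ranges down to 1.62 ± 0.207, and a gap separated TLR7 from TLR5, TLR3, TLR8 and TICAM1, all at 0.60 FPKM or less. This gap was absent with the amounts subtracted, where TLR7 (0.31 to 0.40) and TLR5 (0.30 to 0.60) overlapped and TLR5 had the higher mean. In DP the first 6, TLR2, TLR1, TLR4, TLR3, TLR6 and MYD88, overlapped with their neighbours in the order, and MYD88 (6.15 ± 0.990) did not overlap with TLR7 (3.52 ± 0.788). In LG the order was TLR2, MYD88, TLR1, TLR5, TLR3, TLR4, TLR6, TLR7, TLR8 and TICAM1, and TLR7, TLR8 and TICAM1 did not overlap with their neighbours. TLR3 thus had rank 8 of 10 in LL, rank 4 in DP and rank 5 in LG.

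The share of each receptor in the summed FPKM of 7 receptors, without TLR1, does not depend on the scaling between libraries. TLR3 held 1.30% to 3.94% of the sum (LL), 13.5% to 18.2% (DP) and 11.9% to 15.9% (LG). TLR2 held 42.4% to 51.7% in LL and 18.8% to 38.8% in DP, and in LG its share ranged from 21.0% to 51.25%. TLR7 held 9.56% to 15.1% (LL), 7.40% to 9.44% (DP) and 6.32% to 6.63% (LG), and TLR5 2.05% to 5.49%, 3.81% to 7.74% and 7.98% to 25.8%. The shares of TLR3 in DP and LG did not overlap with those in LL, and neither did those of TLR2, TLR7 and TLR8 in DP against LL. Two-sided exact permutation tests of the 3 stages gave p = 0.1 at the lowest, the smallest p that 3 against 3 libraries allow, and 0.191 after adjustment over the 21 tests. With the amounts subtracted, TLR3 held 1.79% to 7.52% (LL), 13.3% to 19.8% (DP) and 10.7% to 15.7% (LG), which still do not overlap with LL, and TLR7 held 3.76% to 6.12% in LL, which then overlaps with DP, as does TLR8 at 0% to 3.97% in LL and 0.976% to 10.7% in DP.

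**Figure D4:**
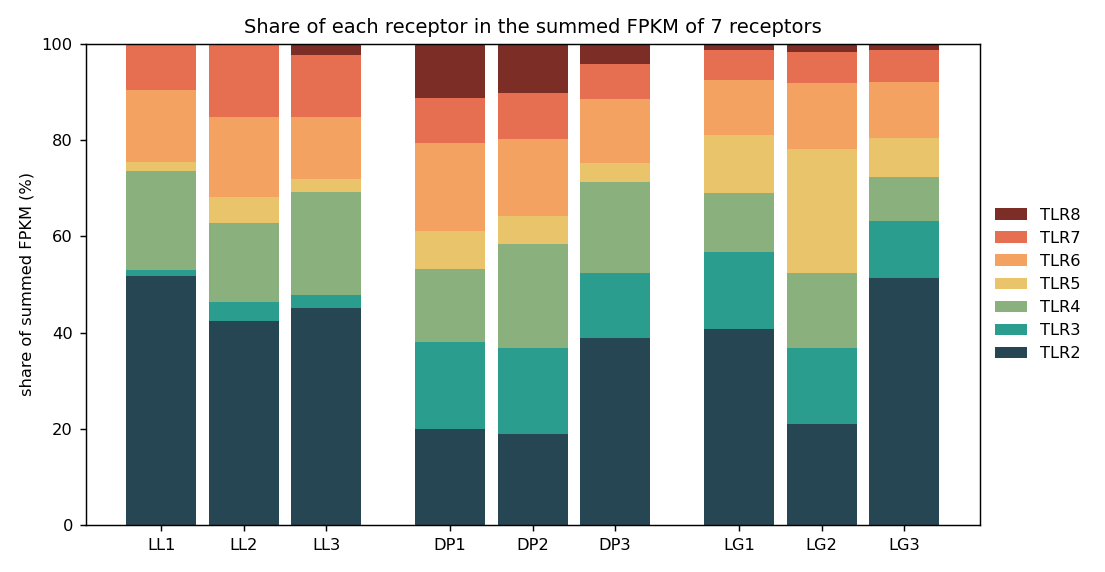
Share of each of 7 receptors (percent, linear axis) in their summed deposited FPKM, 1 bar per library. The TLR3 segment is thin in the 3 LL bars and wider in the 6 others, TLR8 is widest in DP1 and DP2, and TLR5 is widest in LG2.

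Markers of leukocytes moved with the stages. The summed scaled level of 5 general leukocyte genes (PTPRC, LCP1, CORO1A, ITGB2 and LAPTM5) was 52.5 to 66.8 (LL), 90.1 to 190.7 (DP) and 43.6 to 69.9 (LG), with 3 of 5 called higher in DP against LL and 3 of 5 called lower in LG against DP. For 8 macrophage and monocyte genes the sum was 82.7 to 113.9 (LL), 203.8 to 246.7 (DP) and 90.1 to 106.5 (LG), with 4 of 8 called higher in DP against LL and 7 of 8 called lower in LG against DP. No gene of either list was at 0 in all libraries of a stage. These DP levels stand beside the DP level of TLR8, and their part in it was not tested. Of 6 T cell genes, 5 were called higher in DP and 3 in LG against LL, where 13.8% and 10.7% of all genes tested were called higher. The 3 called in LG, CD3D, CD3G and CD8A, had 0.04 to 0.26 FPKM in LL, below the fixed amounts. TLR3 and TLR5, also higher in that comparison, had LL values below the amounts as well. Of 6 fibroblast genes, 5 were called higher in DP against LL, 1 higher in LG against LL and 3 lower in LG against DP. Of 4 neutrophil genes, 0 were called in DP against LL, 1 higher and 2 lower in LG against LL and 1 each way in LG against DP. The neutrophil gene called higher, CSF3R, had 0.05 to 0.23 FPKM in LL, also below the amounts. Of 4 dendritic cell and 5 endothelial genes, 1 each was called, lower in LG against DP, and 0 of 6 epithelial genes were called in any comparison. None of the 5 B cell genes passed the filter, with summed scaled levels of 0.597 to 1.75 (LL), 0.631 to 15.7 (DP) and 0.289 to 0.608 (LG), the high value being DP1. The 3 adipocyte genes summed to 0.235 to 0.628 (LL), 0.867 to 17.02 (DP) and 0.367 to 0.4945 (LG), again high in DP1, and 0 of the 1 tested was called. PAX5 and LEP were at 0 in all LL libraries. The part of these cells in the receptor values was not tested.

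Set against PTPRC, the pan-leukocyte gene of CD45, in the same library, 7 of the 10 genes had their lowest mean ratio in DP. Both of the linked genes TLR1 and TLR6 are in this count. PTPRC was itself called higher in DP than in LL and lower in LG than in DP. Its mean scaled level was 6.455 (LL), 23.0 (DP) and 8.528 (LG). A gene of steady level would therefore also have its lowest ratio in DP, and the share over all genes was not computed. The ratio of TLR2 to PTPRC was 1.54 to 2.12 (LL), 0.166 to 0.905 (DP) and 0.466 to 1.83 (LG), and that of MYD88 was 0.767 to 0.866, 0.120 to 0.354 and 0.459 to 0.757. TLR4 had 0.605 to 0.838 (LL), 0.126 to 0.444 (DP) and 0.331 to 0.468 (LG). TLR3, TLR8 and TICAM1 did not follow this order. The ratio of TLR8 was 0 to 0.0775 (LL), 0.0934 to 0.114 (DP) and 0.0348 to 0.0487 (LG), and that of TLR3 was 0.0531 to 0.145, 0.151 to 0.316 and 0.350 to 0.607. TLR5 had its highest ratios in LG, at 0.285 to 0.572.

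The other genes of the pathway were taken from a list of 56, of which 53 were found in the table and 51 were tested. In DP against LL 9 were called higher and 3 lower, in LG against LL 3 higher and 5 lower, and in LG against DP 3 higher and 6 lower. These are 23.5%, 15.7% and 17.6% of the 51 tested, against 22.6%, 17.3% and 13.3% of all genes tested. Their median log2 fold change was 0.35, 0.09 and -0.11 in the 3 comparisons, against 0.00, 0.02 and 0.01 over all genes. Of the 9 genes called higher in DP against LL, 8 had all LL values below the fixed amounts, CCL5 being the exception. This was common among all 2029 genes called higher there. Of these, 1454 had all LL values below the amounts and, more strictly, all DP values at or above them. The 8 pathway genes had no LL value of 0.5 FPKM or more, so they passed the filter only through libraries of the other stages.

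Among the co-receptors, CD14, which hands lipopolysaccharide to TLR4, was lower in LG than in LL (-1.18, adjusted p = 0.0111) and than in DP (-1.91, adjusted p = 0.00161). It had 4.33 to 4.84 FPKM (LL), 12.06 to 28.48 (DP) and 3.15 to 5.47 (LG). LBP, the lipopolysaccharide-binding protein, was also lower in LG than in LL (-1.92) and than in DP (-1.34). LY96, which encodes the MD-2 subunit of the TLR4 complex, was lower in DP than in LL by 1.06 on the log2 scale, while its deposited levels were 11.17 to 16.46 FPKM in LL and 16.1 to 17.33 in DP. CD180, a relative of TLR4, and LY86, its binding partner, were higher in DP than in LL (1.02 and 1.40), although CD180 was at 0.21 FPKM in DP3. CD36, a scavenger receptor that works with TLR2 and TLR6 and also takes up fatty acids, was lower in DP than in LL (-4.30) and higher in LG than in DP (3.61). TLR9, a receptor for DNA, was at 1.22 to 2.57 FPKM and was not called, and TLR10 was listed at 0 in all LL libraries and at 1.59 FPKM or less elsewhere. The 3 chaperones of the receptors, UNC93B1, HSP90B1 and CNPY3, were not called in any comparison.

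Further along the pathway, IRAK3, an inhibitor of the kinases that bind MYD88, was higher in DP than in LL (1.62, adjusted p = 6.68e-05) and lower in LG than in DP (-1.45). SARM1, another adaptor with a TIR domain, was higher than in LL both in DP (1.69) and in LG (1.23). TNFAIP3, which removes ubiquitin from signalling proteins, was lower in LG than in DP (-1.197). Of the 16 kinase and ubiquitin ligase genes, IRAK2 (1.02) and MAP3K8 (1.86) were higher in DP than in LL, MAP3K8 was lower in LG than in DP (-2.12), and IKBKE was higher in LG than in DP (1.38), with overlapping values. Of the 8 transcription factor genes, NFKBIA, the NF-kB inhibitor that NF-kB itself induces, was lower in LG than in LL (-1.91, adjusted p = 0.000352), and REL was lower too (-1.06), again with overlap.

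The target genes did not move in 1 direction. CXCL10, a chemokine induced by interferon, had 0.11 to 0.14 FPKM (LL), 3.23 to 10.41 (DP) and 9.45 to 26.58 (LG), and was called higher in all 3 comparisons (2.12, 3.40 and 1.28). IL6 had 0.18 to 0.28 FPKM (LL), 2.11 to 10.98 (DP) and 0.20 to 0.38 (LG), and was higher in DP than in LL (1.86) and lower in LG than in DP (-2.08), but it passed the filter only through the DP libraries in which it was high. CXCL8, a chemokine for neutrophils, was lower than in LL both in DP (-1.54, adjusted p = 0.0475) and in LG (-2.71, adjusted p = 0.00439). It had 10.44 FPKM in LL1 and 1.88 and 3.48 in LL2 and LL3. The DP values, 0.87 to 7.34 FPKM, overlapped with those of LL, also after scaling. CCL5 was higher in DP than in LL (1.36), and CD86, a costimulatory molecule of antigen-presenting cells, was higher in LG than in LL (1.68). Of the 10 target genes tested, 3 were called higher and 1 lower in DP against LL, 2 higher and 1 lower in LG against LL and 1 each way in LG against DP.

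**Figure D5:**
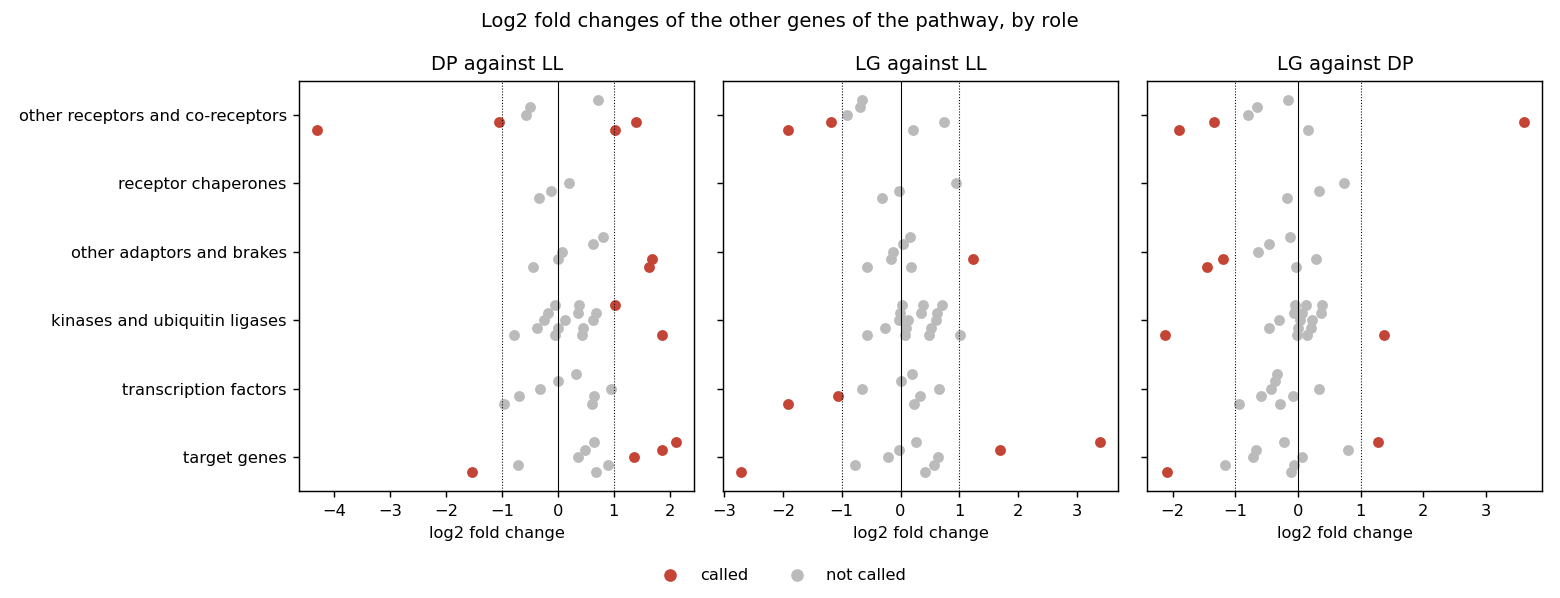
Log2 fold change of log2(scaled FPKM + 1) for the 51 other genes of the pathway that were tested, by role (rows, with points spread vertically for legibility) and comparison (panels), red where called. Dotted lines mark the threshold of 1. Most points lie between the dotted lines, and the called genes of the co-receptor and target rows lie on both sides of 0.

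Over the 9 libraries, the genes whose scaled log2 values correlated best with a called member were KLF11 (Pearson r = 0.994), C17H4orf46 (0.992) and ZNF527 (0.991) for TLR3, GATA4 (0.986), SEPHS1 (0.9745) and TTC23 (0.967) for TLR5, and C1H3orf52 (0.983), CNOT6 (0.980) and CCDC66 (0.9754) for TLR8. An r of at least 0.9 was reached by 887 genes with TLR3, 118 with TLR5 and 251 with TLR8. These are descriptions, since the 9 points fall into 3 stages and share their scaling factors.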

How the data were processed

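Mammary RNA of 9 goats was sequenced after TruSeq library preparation. Per the labels and the paper's methods, the authors checked and trimmed reads with FastQC and Trimmomatic, aligned them with HISAT2 and sorted them with SAMtools. The paper names StringTie and the processing notes name HTSeq for quantification. The authors deposited 1 value per gene and library without naming a unit, and these values were read as FPKM, the unit the paper names, with sums of 601250 to 1157015 per library. The paper identifies the goat reference genome by a sample record, the name of the build is not given in the sources used here, and 23465 gene IDs matched the RefSeq table of ARS1.2, including all 10 members.

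Values were divided by median-ratio factors from the 15905 genes above 0 in every library, 1 was added and log2 taken. Genes were kept if 3 or more libraries reached 0.5 FPKM, which left 14701. For these, limma (version 3.58.1, under R 4.3.3) was fitted to the 9 libraries together, without covariates and with a mean-variance trend, and p-values were adjusted by Benjamini-Hochberg over all kept genes. Other values were computed in Python 3.11.15. In simulated data for DP against LL with 14947 genes, 186 of 200 genes changed by 2 (log2) were called and 3 unchanged ones. The changed genes were drawn from those with a mean scaled FPKM of at least 2, and all others were set equal across stages. Fixed amounts were not simulated, so these numbers do not cover weakly expressed genes or the effect of the amounts. The members and lists were chosen with earlier results of these data known. The text names all members, the pathway genes called in any comparison and, for each called member, the 3 genes with symbols that correlated best. CCL2, CCL3, CCL4, CD163, FCGR3A and FABP4 of the lists were not analysed here. Alternatives covered scaling, pseudocount, filter, libraries in the fit, replicate number, trend, threshold and each library left out, and, added after the values were seen, subtraction of fixed amounts.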

Additional observations from a re-analysis of the deposited data

How the results depend on the processing

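Each library is a different goat, the reads behind the values are unknown, and the subtraction of the fixed amounts was chosen after the values were seen. Of the 27 log2 fold changes of single genes, 27 kept their direction and their side of the threshold with a pseudocount of 0.1, with no filter on low values and with no mean-variance trend. Same-numbered libraries of different stages had correlations of their deviations of -0.106 to 0.201, so the replicate numbers were not taken to pair them. With the replicate number as a block, 2, 2 and 1 members and 11, 9 and 9 other pathway genes were called for DP and LG against LL and for LG against DP, and no call of a member changed.

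Of the members, 2, 2 and 1 were called in these comparisons. In DP against LL they were 6 without scaling and 1 with a filter of 2 FPKM, with the amounts subtracted by stage, by stage with no filter, or everywhere. In LG against LL they were 1 with the amounts subtracted by stage, with or without the filter. In LG against DP they were 2 with quantile normalization, 0 with a filter of 2 FPKM and 0 with the amounts subtracted by stage and no filter. The other pathway genes called (12, 8 and 9) were 37 and 23 without scaling in the first 2 comparisons and 29, 23 and 19 by the adjusted p alone. In LG against LL they were 13 with a pseudocount of 0.1 and 14 with the amounts subtracted everywhere, and in LG against DP 4 with the amounts subtracted by stage and no filter. With each library left out in turn, members called ranged from 1 to 2, from 2 to 2 and from 0 to 2, and pathway genes from 9 to 11, from 7 to 9 and from 6 to 9. TLR8 did not pass the filter without DP1, DP2 or DP3. The count fell to 1 in DP against LL without DP1 or DP2, stayed at 2 without DP3, where TLR2 was called, and was 0 in LG against DP without DP2 or DP3.

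Without scaling, the median of all genes shifted by 1.09, 0.93 and -0.18 (log2) in the 3 comparisons, and 11 directions turned. These were TLR1 (1.05), TLR2 (0.61), TLR7 (0.78) and MYD88 (0.86) in DP against LL, then TLR1 (0.56), TLR2 (0.83), TLR4 (0.48), TLR6 (0.76), TLR7 (0.25) and MYD88 (0.84) in LG against LL, and MYD88 (-0.025) in LG against DP. With quantile normalization TLR5 was at -0.024 in DP against LL, and the cause was not tested. After subtraction of the amounts by stage, whether or not the filter was used, TLR5 (-0.37) and TLR7 (0.34) turned in DP against LL and TLR6 (0.37) in LG against LL, and subtracted everywhere TLR7 was at 0.40 and TLR6 at 0.37. Leaving out 1 library turned TLR4 in DP against LL (range -0.13 to 0.24, turned without LL2 or DP3) and, in LG against LL, TLR2 (-0.475 to 0.176, without LG2) and TLR6 (-0.21 to 0.009, without LL1).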
